A study of Homo sapiens with 8 samples.

Results

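The TEAD transcription factors, their coactivators YAP and TAZ, and classical YAP-TAZ target genes were followed as a set of 10 genes in xenograft tumours of H2122, an established cell line from a human lung cancer. The set holds the 4 TEAD genes (TEAD1, TEAD2, TEAD3 and TEAD4), YAP1, WWTR1 (which encodes TAZ), and the targets CYR61 (listed as CCN1), CTGF (listed as CCN2), ANKRD1 and AMOTL2. Its members were picked by gene symbol. All 10 were found among the 59050 symbols of each count file, and 9 had enough reads to be among the 16219 genes tested. ANKRD1 did not.

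RNA was sequenced from 4 parental tumours, labelled wild type, and 4 tumours from H2122 cells with a knockout of SMARCA4, the gene of a catalytic subunit of the SWI/SNF chromatin remodelling complex. All 8 tumours had received vehicle and no other agent. The labels give neither the strain or age of the host mice, nor whether the knockout cells were 1 clone or a pool, nor that the samples of a group came from separate animals. The p-values therefore measure the spread between these samples. Knocking out SMARCA4 left reads of the gene itself at 27.3 ± 3.90 counts-per-million (CPM; SD, n = 4) against 221 ± 16.0 CPM in the parental tumours, and the 2 groups did not overlap.

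YAP and TAZ are the transcriptional coactivators at the end of the Hippo pathway. The kinases MST1/2 (STK4 and STK3) activate LATS1/2, which phosphorylate YAP and TAZ and keep them in the cytoplasm. Unphosphorylated YAP and TAZ enter the nucleus and, having no DNA-binding domain of their own, reach DNA mainly through TEAD proteins. TEAD proteins recognise a short element around GGAATG, often near AP-1 elements, and CTGF, CYR61 and ANKRD1 are the most widely used readouts of their activity. Transcript levels of YAP1, WWTR1 and the kinases do not report phosphorylation or location in the cell.

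Promoter matches to GGAATG, with any AP-1 match, are shown here for the members in which they were found. In the RefSeq table of GRCh38.p14, 7 of the 10 members had a promoter entry (TEAD2, TEAD3, YAP1, WWTR1, CTGF, ANKRD1 and AMOTL2). The 250 bases before each transcription start were searched for GGAATG on both strands (CATTCC on the other strand) and for the AP-1 element TGANTCA, which is its own reverse complement. Capitals mark the matches, all of which lay on the strand of the gene. The CTGF stretch lies at chr6:131951452-131951551 (minus strand), the ANKRD1 stretch at chr10:90921200-90921317 (minus strand) and the YAP1 stretch at chr11:102110275-102110300 (plus strand).
CTGF: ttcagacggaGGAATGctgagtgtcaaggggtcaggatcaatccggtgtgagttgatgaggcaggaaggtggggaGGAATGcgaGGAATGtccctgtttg
ANKRD1: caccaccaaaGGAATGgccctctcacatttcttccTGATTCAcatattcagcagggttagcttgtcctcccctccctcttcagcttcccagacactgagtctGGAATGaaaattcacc
YAP1: ggagtgtgcaGGAATGtagcaacttg

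CTGF held 3 matches to the TEAD core, starting 169, 104 and 95 bases before the start site. ANKRD1 held 2, starting 220 and 128 bases before the start, with an AP-1 match (TGATTCA) starting 195 bases before it. YAP1 held 1 match, starting 162 bases before the start. TEAD2, TEAD3, WWTR1 and AMOTL2 had no match to either motif in this window, which says nothing about more distant elements. Each gene was searched only at its first listed start site. For WWTR1 that window, chr3:149703274-149703523, lies inside the gene, whose upstream end is at 149736714. The bases before that end were not searched. The windows of ANKRD1, TEAD2 and AMOTL2 ran partly into their genes, whose upstream ends are at 90921276, 49362457 and 134375479. The ANKRD1 window was chr10:90921088-90921337. Among 27305 promoter windows of the same length, 11.9% held at least 1 TEAD core, 0.963% held at least 2, 0.0952% held at least 3, and 6.60% held an AP-1 match. A match is a string of letters and not a measured binding site.

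Knockout and parental tumours were compared with edgeR's quasi-likelihood test on the counts of all genes, and a gene was called where its Benjamini-Hochberg adjusted p over all genes tested was below 0.05. Of the genes tested, 27.0% were called, 13.0% higher and 14.1% lower in knockout tumours, and 29.3% had groups that did not overlap. Among the 9 members tested, 3 were called, which is 33.3%. TEAD3 and CTGF were lower in knockout tumours and AMOTL2 was higher, and these 3 were also the members whose groups did not overlap. The median log2 fold change of the 9 members was 0.15, against 0.00 over all genes tested. This share was close to the background.

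**Figure D1:**
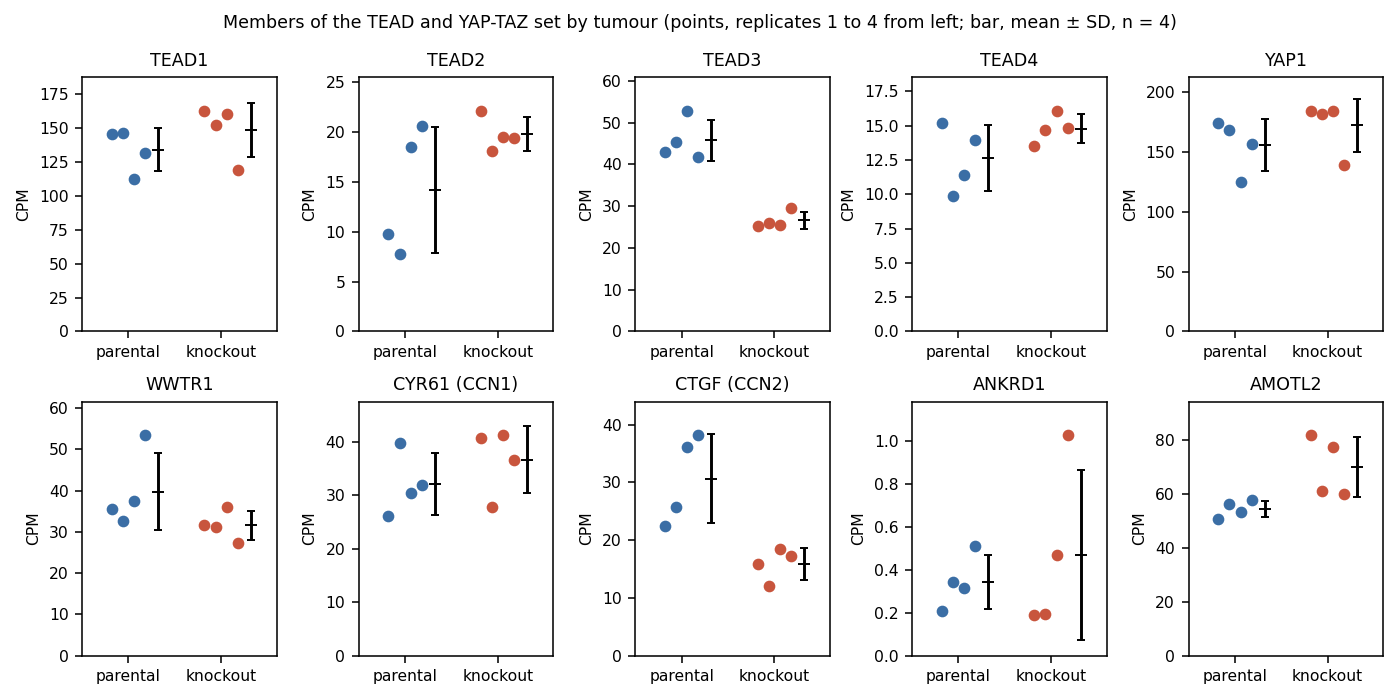
Expression of the 10 genes in each of the 8 tumours, in CPM on scaled libraries. Points are tumours and the bar beside them is the group mean with SD (n = 4). TEAD3 and CTGF are lower in all 4 knockout tumours than in any parental tumour, AMOTL2 is higher in all 4, and ANKRD1 stays at or below 1.03 CPM.

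Among the DNA-binding factors, TEAD3 (chromosome 6, 35473597 to 35497076 on GRCh38, minus strand) fell. Its levels were 43.0, 45.3, 52.9 and 41.9 CPM in parental tumours 1 to 4 and 25.2, 25.9, 25.6 and 29.6 CPM in knockout tumours 1 to 4. Every knockout tumour lay well below the lowest parental tumour, and the mean fell from 45.8 ± 4.95 to 26.6 ± 2.05 CPM (SD, n = 4 each). In edgeR the log2 fold change was -0.78 (adjusted p = 0.000183, SE 0.101), a reduction to 0.581 of the parental level. The call held in all 20 alternatives, with log2 fold changes between -0.84 and -0.71.

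TEAD1 (chromosome 11, 12674591 to 12944483, plus strand) had the most reads of the family before length is taken into account. It measured 145, 146, 112 and 131 CPM in the parental tumours and 163, 152, 160 and 119 CPM in the knockout tumours. The groups overlapped, and the log2 fold change was 0.15 (adjusted p = 0.385 in edgeR, SE 0.119) with a 95% interval of -0.14 to 0.44. A fall as large as that of TEAD3 lies outside this interval. Without parental tumour 3 the log2 fold change was 0.07, and without knockout tumour 4 it was 0.25.

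TEAD4 (chromosome 12, 2959330 to 3040673, plus strand) measured 15.2, 9.91, 11.4 and 14.0 CPM in parental tumours and 13.5, 14.7, 16.1 and 14.8 CPM in knockout tumours. These ranges overlapped, and the log2 fold change of 0.23 (adjusted p = 0.265 in edgeR, SE 0.141) had an interval of -0.12 to 0.57. Without parental tumour 2 it was 0.13.

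TEAD2 (chromosome 19, 49340595 to 49362457, minus strand) was the most variable TEAD gene among the parental tumours. Parental tumours 1 and 2 had 9.79 and 7.76 CPM and parental tumours 3 and 4 had 18.5 and 20.5 CPM, while the knockout tumours had 22.1, 18.04, 19.4 and 19.4 CPM. The coefficient of variation was 44.6% in the parental group and 8.63% in the knockout group. The log2 fold change of 0.48 (adjusted p = 0.211 in edgeR, SE 0.262) therefore carried a wide interval, -0.17 to 1.12. It was 0.27 without parental tumour 2 and 0.70 without parental tumour 4, and not called in either. TEAD2 shares 10.7% of its exonic bases with CD37 on the opposite strand, and CD37 had 165 reads in all 8 libraries against 2919 for TEAD2. The strand setting of the counting is not given, so reads of such pairs cannot be told apart.

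The 4 TEAD genes were then compared per length, in transcripts-per-million (TPM), to describe the make-up of the family. TEAD3 and TEAD1 were the main forms in the parental tumours, at 50.7 ± 6.25 and 43.8 ± 5.59 TPM, above TEAD4 at 18.7 ± 3.08 TPM and TEAD2 at 16.2 ± 7.72 TPM. In the knockout tumours TEAD1 stood at 44.9 ± 6.91 TPM, TEAD3 at 27.1 ± 1.603, TEAD2 at 20.5 ± 1.63 and TEAD4 at 20.2 ± 1.93 TPM. TEAD1 thus exceeded TEAD3 in each knockout tumour. Their order in parental tumours depended on the length used. With the longest transcript as length, TEAD1 exceeded TEAD3 in parental tumours 1 (40.6 against 34.2 TPM), 2 and 4. It did not in parental tumour 3 (33.8 against 45.3 TPM). TPM changes in these libraries ran 0.12 below the log2 changes of scaled CPM in the median over 16021 genes, so shares within the family are safer to compare than TPM levels between groups.

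TEAD3 made up 37.0%, 41.2%, 43.9% and 34.8% of the TEAD total in parental tumours and 22.1%, 23.8%, 22.3% and 28.3% in knockout tumours. The groups did not overlap, and the mean share fell by 15.1 percentage points, from 39.2% ± 4.14 to 24.1% ± 2.89. The exact two-sided permutation test gave p = 0.0286, the smallest that 4 against 4 allows. Adjusted over the 6 shares and totals tested, this permutation p became 0.103. A lone comparison at the smallest p cannot pass a correction over 6, so the adjusted value could not decide on the TEAD3 share. TEAD1 had a mean share of 34.1% in parental and 39.7% in knockout tumours (exact permutation adjusted p = 0.171). For TEAD2 the shares were 12.2% and 18.2%, and for TEAD4 14.5% and 17.96% (exact permutation adjusted p = 0.103 for both).

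The summed TEAD level was 129 ± 10.1 TPM in parental and 113 ± 7.34 TPM in knockout tumours (exact permutation p = 0.0571, adjusted 0.103). On scaled CPM per kilobase the sums were 38.3 ± 1.64 and 36.3 ± 1.53, and the knockout level was 94.7% of the parental one instead of 87.1%. A fall in the family total was thus not resolved, while TEAD3 within it was lower by gene-level test.

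**Figure D2:**
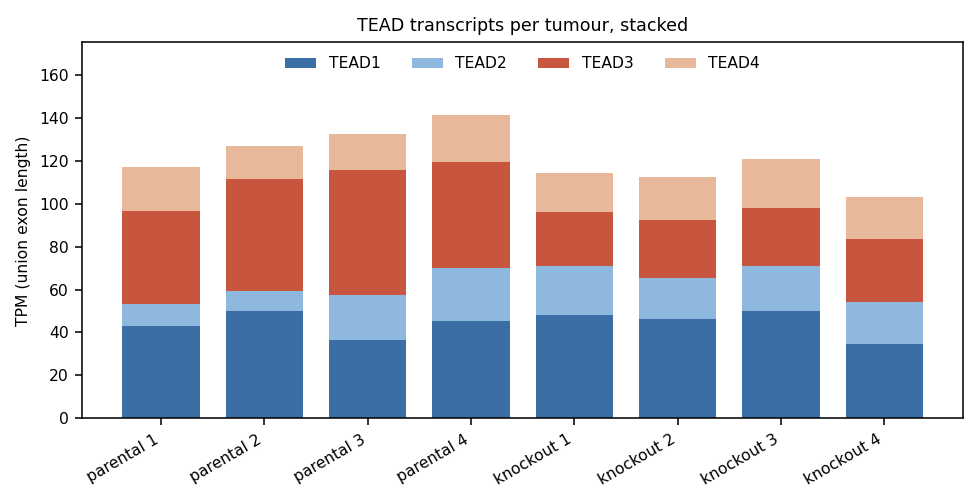
Levels of the 4 TEAD genes per length in each tumour, in TPM, stacked so that bar height is the family total. The TEAD3 segment takes 34.8% to 43.9% of the bar in parental tumours and 22.1% to 28.3% in knockout tumours.

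Neither coactivator passed the test. YAP1 (chromosome 11, 102110461 to 102233423, plus strand) measured 174, 168, 125 and 156 CPM in parental tumours and 184, 181, 184 and 139 CPM in knockout tumours. Parental tumour 3 and knockout tumour 4 were the lowest of their groups, as they were for TEAD1. The log2 fold change was 0.14 (adjusted p = 0.433 in edgeR, SE 0.125), with an interval of -0.16 to 0.45. Without parental tumour 3 it was 0.049, and without knockout tumour 4 it was 0.24.

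WWTR1 (chromosome 3, 149517235 to 149736714, minus strand) measured 35.5, 32.5, 37.4 and 53.5 CPM in parental tumours and 31.6, 31.2, 36.0 and 27.4 CPM in knockout tumours. The log2 fold change was -0.33 (SE 0.152) with an interval of -0.71 to 0.04, and its edgeR p of 0.0499 became 0.131 after adjustment. Parental tumour 4 set much of this difference: without it the log2 fold change was -0.16. Antisense genes overlap 9.45% of the exonic bases of WWTR1 (WWTR1-AS1, 101 reads against 6122) and 9.98% of those of YAP1 (AP000942.2, 10 reads against 27837).

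Per length, YAP1 was the most abundant member in both groups, at 83.3 ± 11.9 TPM in parental and 85.0 ± 12.6 TPM in knockout tumours. WWTR1 had rank 9 of 10 in both by exon length, at 16.0 ± 4.53 and 11.7 ± 1.63 TPM. With the longest transcript as length, it exceeded TEAD4 in parental tumour 2 (17.2 against 15.6 TPM) but not in parental tumour 1 (16.7 against 21.3 TPM). YAP1 supplied 86.7%, 87.3%, 81.7% and 79.6% of the YAP1 plus WWTR1 sum in parental tumours and 88.6%, 88.6%, 87.2% and 87.1% in knockout tumours. The ranges overlapped, and the exact permutation test gave p = 0.0857 (adjusted 0.103). YAP transcript was therefore the main coactivator transcript in all 8 tumours.

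The targets did not move together. CTGF (chromosome 6, 131948176 to 131951373, minus strand), a secreted matricellular protein of the CCN family, fell. It measured 22.4, 25.8, 36.1 and 38.3 CPM in parental tumours and 15.9, 12.1, 18.4 and 17.2 CPM in knockout tumours. The highest knockout tumour lay below the lowest parental tumour, and the mean went from 30.6 ± 7.74 to 15.9 ± 2.73 CPM. The log2 fold change was -0.95 (adjusted p = 0.00293 in edgeR, SE 0.185), a reduction to 0.518 of the parental level. Leaving out any 1 tumour gave -1.08 to -0.83, and the gene was called each time. An antisense gene, AL133346.1, covers 8.34% of the exonic bases of CTGF, with 60 reads in all libraries against 4018.

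CYR61 (chromosome 1, 85580761 to 85583962, plus strand), the closest CCN relative of CTGF among the readouts, did not show this. Its levels were 26.1, 39.9, 30.4 and 32.02 CPM in parental tumours and 40.7, 27.7, 41.4 and 36.7 CPM in knockout tumours. The groups overlapped widely, and the log2 fold change was 0.19 (adjusted p = 0.391 in edgeR, SE 0.152) with an interval of -0.18 to 0.56. It was 0.097 without parental tumour 1, 0.128 without knockout tumour 3, 0.31 without parental tumour 2 and 0.30 without knockout tumour 2. For each CYR61 read there were 0.857, 0.646, 1.19 and 1.195 CTGF reads in parental tumours and 0.390, 0.436, 0.445 and 0.468 in knockout tumours. This ratio was chosen after the values were seen and is a description.

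AMOTL2 (chromosome 3, 134355874 to 134375479, minus strand), an angiomotin family protein that binds YAP and is also a YAP target, rose. It measured 50.6, 56.1, 53.2 and 57.5 CPM in parental tumours and 81.9, 61.0, 77.2 and 59.99 CPM in knockout tumours. Knockout tumours 1 and 3 were far above the parental range and tumours 2 and 4 just above it. The mean went from 54.4 ± 3.08 to 70.04 ± 11.2 CPM, or 0.37 in log2 fold change (adjusted p = 0.0330 in edgeR, SE 0.113). The call was lost without parental tumour 1 (adjusted p = 0.0992), parental tumour 3 (0.0695), knockout tumour 1 (0.105) or knockout tumour 3 (0.0985).

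ANKRD1 (chromosome 10, 90912096 to 90921276, minus strand), an ankyrin repeat protein of muscle that YAP induces in many epithelial lines, was barely expressed. It had 4, 7, 7 and 12 reads in the parental libraries and 4, 4, 10 and 22 reads in the knockout libraries. Pooled over libraries, the ratio of knockout to parental was 1.33 (95% counting interval 0.807 to 2.21), and without knockout tumour 4 it was 0.796 (0.418 to 1.48). No difference was detectable at this depth. Knockout tumour 4, with 22 of the 40 knockout reads, also had the highest summed level of skeletal and cardiac muscle markers in its group, 20.5 CPM against 3.07 to 6.07 CPM. Parental tumour 2, with the highest muscle sum of all 8 (46.3 CPM), had 7 ANKRD1 reads. The part of muscle RNA in the ANKRD1 reads was not tested.

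In order of level per length, TEAD3, CTGF (44.5 ± 13.0 TPM), CYR61 (44.4 ± 10.3 TPM) and TEAD1 overlapped behind YAP1 in parental tumours. AMOTL2 (30.7 ± 3.74 TPM), the next in order, lay below every TEAD1 value and above every TEAD4 value. In knockout tumours the order behind YAP1 was CYR61 (46.3 ± 8.14), TEAD1 and AMOTL2 (36.4 ± 6.17), which overlapped. TEAD3, CTGF (21.1 ± 3.74), TEAD2 and TEAD4 followed, and WWTR1 lay below all of these. By these exon lengths CTGF moved from place 3 to place 6 and CYR61 from place 4 to place 2. The places depend on the length used. With the longest transcript as length, WWTR1 exceeded CTGF in knockout tumour 2 (15.2 against 12.6 TPM).

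**Figure D3:**
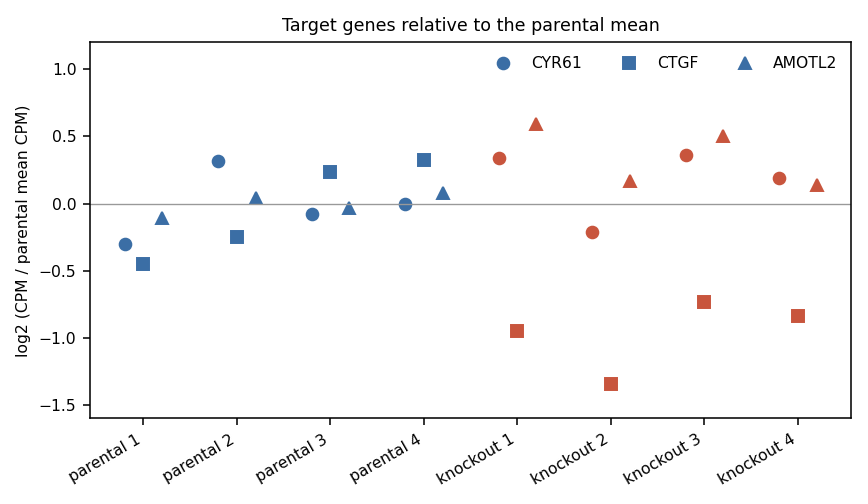
CTGF, CYR61 and AMOTL2 in each tumour as log2 of the level relative to the parental mean. CTGF points of the 4 knockout tumours all lie below those of the parental tumours, AMOTL2 points all lie above them, and CYR61 points of the groups overlap. Blue points are parental and red points knockout tumours.

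The mouse host contributes other cells to these tumours, and fewer cells of a type and less RNA per cell cannot be told apart in bulk RNA. CTGF and CYR61 are also expressed by fibroblasts and smooth muscle. Summed over 6 smooth muscle markers, levels were 18.7 to 24.0 CPM in parental and 46.3 to 79.1 CPM in knockout tumours, without overlap. On average TAGLN made up most of these sums (means of 13.4 and 50.3 CPM). Of the 4 smooth muscle markers tested, only TAGLN was called (log2 fold change 1.91). The groups of ACTA2, MYH11 and ACTG2, the others tested, overlapped. Over 10 fibroblast markers the sums were 182 to 612 CPM and 346 to 608 CPM, mostly from COL1A1 (means of 353 and 447 CPM). COL3A1 had means of 11.5 and 10.3 CPM and COL1A2 of 5.04 and 7.62 CPM. DCN, PDGFRA, PDGFRB and THY1 had too few reads to test. Of the 6 tested, 1 was called (LUM, log2 fold change 5.00), and 1 or 2 markers were at 0 in each library. Leukocyte markers summed to 4.17 to 36.0 and 8.96 to 16.5 CPM with 0 of 7 called by edgeR and 0 at an unadjusted p below 0.05. Endothelial markers summed to 7.46 to 18.5 and 9.24 to 15.6 CPM, mostly from PECAM1. Of the 2 endothelial markers tested, VWF was lower in knockout tumours (log2 fold change -2.37, edgeR adjusted p = 0.00041), without overlap. PECAM1, the other, had a log2 fold change of 0.30 and was not called. Among those with too few reads to test, CDH5 had 36 parental reads, 26 of them in 1 library, and 0 in all 4 knockout libraries. KDR had 38 parental and 9 knockout reads, and TIE1 had 15 and 30. The part of these cell types in the CTGF and AMOTL2 values was not tested beyond the fits with marker scores. Epithelial tumour markers summed to 7963 to 9199 and 6789 to 8210 CPM. Of the 8, 3 were called, all lower (KRT7, KRT19 and CLDN4), which is 37.5% beside 27.0% of all genes tested. Of the 8 log2 fold changes 4 were below 0 and 4 above it.

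With a fibroblast and smooth muscle score added to the fit, TEAD3 was still called, while CTGF had a log2 fold change of -0.83 (edgeR adjusted p = 0.125) and AMOTL2 0.19 (0.579). That score holds LUM and TAGLN, which themselves differ between the groups. Without these 2 genes in the score, CTGF was called at -0.87 (adjusted p = 0.00954) and AMOTL2 was not, at 0.30 (0.0972).

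A wider set of 22 genes from published YAP-TAZ-TEAD target signatures, 4 of them members (CYR61, CTGF, ANKRD1 and AMOTL2), moved in both directions. Of the 20 tested, 11 were called, 5 higher and 6 lower in knockout tumours. Groups did not overlap for 7 of the 20, beside 29.3% of all genes tested. The median log2 fold change was 0.15, and values ran from -2.56 to 1.16. Without the 4 members, 9 of 17 tested were called, 4 higher and 5 lower, with a median of 0.11, and 5 had groups without overlap. The share called was 55.0% with the members and 27.0% over all genes tested, with no common direction. Because the list was chosen with earlier results of these data known, this share is a description.

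Of the signature genes that rose, IGFBP3, a carrier of insulin-like growth factors, went from 450 ± 124 to 1006 ± 245 CPM (log2 fold change 1.16, SE 0.221, edgeR adjusted p = 0.00250). Knockout tumour 4, at 642 CPM, was the lowest of its group and still above the highest parental tumour at 569 CPM. NT5E, the ectonucleotidase CD73, went from 182 ± 21.98 to 284 ± 74.0 CPM (0.64, adjusted p = 0.0156), and its groups overlapped. MYOF, a membrane repair protein, went from 296 ± 63.0 to 417 ± 49.5 CPM (0.49, adjusted p = 0.0242). F3, tissue factor, had a log2 fold change of 0.43 (adjusted p = 0.0259). The groups of MYOF and F3 overlapped as well.

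Among those that fell, RBMS3, an RNA-binding protein, went from 9.96 ± 3.82 to 1.68 ± 0.276 CPM (log2 fold change -2.56, SE 0.276, edgeR adjusted p = 5.27e-05). GADD45A, a growth arrest and DNA damage response gene, went from 23.2 ± 1.68 to 9.75 ± 1.73 CPM (-1.25, SE 0.131, adjusted p = 4.33e-05). The groups of both genes were far apart, with a highest knockout value of 2.01 CPM for RBMS3 and 12.3 CPM for GADD45A against lowest parental values of 5.86 and 21.3 CPM. FJX1 (-0.84, adjusted p = 0.0142), ARHGEF17 (-0.63, adjusted p = 0.00954) and CRIM1 (-0.34, adjusted p = 0.03997) also fell. The groups of FJX1 and ARHGEF17 overlapped.

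AXL, a receptor tyrosine kinase, missed the threshold at 0.61 (edgeR adjusted p = 0.0567), as did NUAK2 at 0.45 (0.0550), DOCK5 at 0.31 (0.0594) and LATS2, a Hippo kinase under YAP control, at 0.28 (0.109). F3, CRIM1 and these 4 genes were named after their values were seen. Leaving out parental tumour 1 or knockout tumour 3 lowered the count of signature genes called to 7. The MYOF call was lost without any 1 of parental tumours 1, 3 and 4 and knockout tumours 1 and 3 (adjusted p from 0.0556 to 0.0733). The F3 call was lost without parental tumour 1 or 3 or knockout tumour 1 or 3 (largest adjusted p = 0.0799), and the CRIM1 call without parental tumour 1, 2 or 4 or knockout tumour 2, 3 or 4 (largest 0.102). With the full fibroblast and smooth muscle score in the fit, 3 signature genes were called (RBMS3, GADD45A and ARHGEF17), and with the score lacking LUM and TAGLN 8 were.

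**Figure D4:**
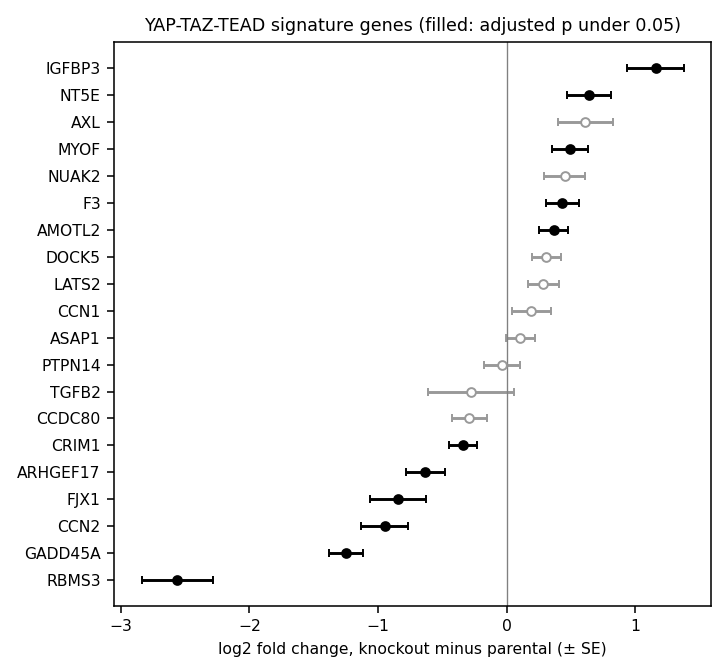
Log2 fold changes (knockout against parental, edgeR) of the 20 tested genes of the YAP-TAZ-TEAD signature, with bars of 1 SE and filled points for called genes; CYR61 and CTGF appear as CCN1 and CCN2. Called genes lie on both sides of 0, from RBMS3 at -2.56 to IGFBP3 at 1.16.

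CTGF and CYR61 belong to the 6-gene CCN family of secreted matricellular proteins, of which 4 were tested. CCN5 (WISP2) rose, from 0.581 ± 0.275 to 2.096 ± 0.506 CPM (log2 fold change 1.85, SE 0.331, edgeR adjusted p = 0.00168), on 49 parental and 178 knockout reads. CCN3 (NOV) had 4.07 ± 0.763 and 4.64 ± 0.659 CPM and was not called (0.19, adjusted p = 0.494). CCN4 had 22 and 17 reads and CCN6 0 and 2 reads in the 4 libraries of each group, too few to test. With CTGF, 2 of the 4 tested were called, a count too small to set against the 27.0% of all genes tested. With the full fibroblast and smooth muscle score in the fit, CCN5 had 0.90 and was not called (adjusted p = 0.194).

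Upstream of YAP and TAZ, 32 genes of Hippo kinases and scaffolds were tested and 7 were called, 4 higher and 3 lower, with a median log2 fold change of -0.03. This is 21.9%, beside 27.0% of all genes tested. The core of the cascade was not called: STK3 had -0.08, STK4 -0.11, SAV1 -0.01, LATS1 0.02, MOB1A 0.03 and NF2 -0.12. MOB1B had 0.28 (edgeR adjusted p = 0.151), like LATS2 among the signature genes. The NF2 groups did not overlap, at 51.0 to 55.2 CPM in parental and 45.2 to 50.5 CPM in knockout tumours. These core genes, and VGLL4 among the partners, were named for their roles.

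RASSF5, an adaptor that binds the MST kinases, rose from 12.6 ± 1.502 to 23.7 ± 4.56 CPM (log2 fold change 0.91, SE 0.148, edgeR adjusted p = 0.000899). The 3 related kinases MINK1, MAP4K4 and TNIK, of the MAP4K family that can activate LATS in parallel to MST, went different ways. MINK1 rose from 144 ± 24.2 to 216 ± 12.6 CPM (0.58, adjusted p = 0.00378) and MAP4K4 from 300 ± 12.04 to 380 ± 48.5 CPM (0.34, adjusted p = 0.0247). TNIK, low throughout, fell from 2.05 ± 0.235 to 0.728 ± 0.229 CPM (-1.49, adjusted p = 0.00188). WWC3, of the KIBRA family, fell (-0.53, adjusted p = 0.00696), as did the polarity scaffold DLG5 (-0.52, adjusted p = 0.00250). RASSF1 was called higher at 0.31 (adjusted p = 0.0483), a call lost without any 1 tumour other than parental tumour 3 (largest adjusted p = 0.138). It was also lost under other scalings (RLE size factors, 0.0556; library size only, 0.0773; library sizes without the 10 most abundant genes, 0.0583) and with no filter on low counts (0.1503). The MAP4K4 call was lost without parental tumour 1 or 3, or knockout tumour 1, 2 or 3 (largest adjusted p = 0.0755). With the full fibroblast and smooth muscle score, TNIK and WWC3 were still called among these 7 genes. The other 5 were not called but had log2 fold changes of 0.72 (RASSF5), 0.60 (MINK1), 0.45 (MAP4K4), 0.46 (RASSF1) and -0.45 (DLG5).

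Of 24 genes listed as partners of YAP, TAZ or TEAD, PTPN21 was not analysed here and 21 were tested. Called were 7 (33.3%, beside 27.0% of all genes tested), 2 higher and 5 lower, with a median log2 fold change of -0.13. The angiomotins, which bind YAP and hold it at junctions, split. AMOT had 198 reads in the parental libraries and 3 in the knockout libraries, a ratio of parental to knockout of 66.2 (95% counting interval 22.3 to 324). AMOTL1 rose from 90.3 ± 14.5 to 143 ± 18.5 CPM (log2 fold change 0.66, SE 0.129, edgeR adjusted p = 0.00279), as did its relative AMOTL2 above. In CPM, AMOT stood at 2.27 ± 0.732 in parental tumours.

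VGLL3, a vestigial-like cofactor that binds TEAD proteins at the surface used by YAP, rose from 27.7 ± 4.65 to 52.6 ± 9.74 CPM (log2 fold change 0.92, SE 0.159, edgeR adjusted p = 0.00130). VGLL4, a TEAD-binding repressor, had a log2 fold change of 0.05 and was not called. TP73 (-2.23, adjusted p = 0.00141) and RUNX2 (-0.98, adjusted p = 0.00187), transcription factors that bind YAP or TAZ, fell. RUNX2 went from 11.7 ± 1.95 to 5.92 ± 1.22 CPM, and TP73 from 2.67 ± 1.55 to 0.565 ± 0.0923 CPM. CTNNA1, alpha-catenin, which retains YAP at adherens junctions, fell from 819 ± 34.9 to 617 ± 26.7 CPM (-0.41, adjusted p = 0.00242). YWHAH, a 14-3-3 protein, fell as well (-0.38, adjusted p = 0.00574). With the full fibroblast and smooth muscle score, AMOT, RUNX2 and CTNNA1 were still called among these 7 genes, and without LUM and TAGLN in it all 7 were. Of the 4 that lost their calls, TP73 had -2.07, VGLL3 0.81, AMOTL1 0.34 and YWHAH -0.28 under the full score.

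**Figure D5:**
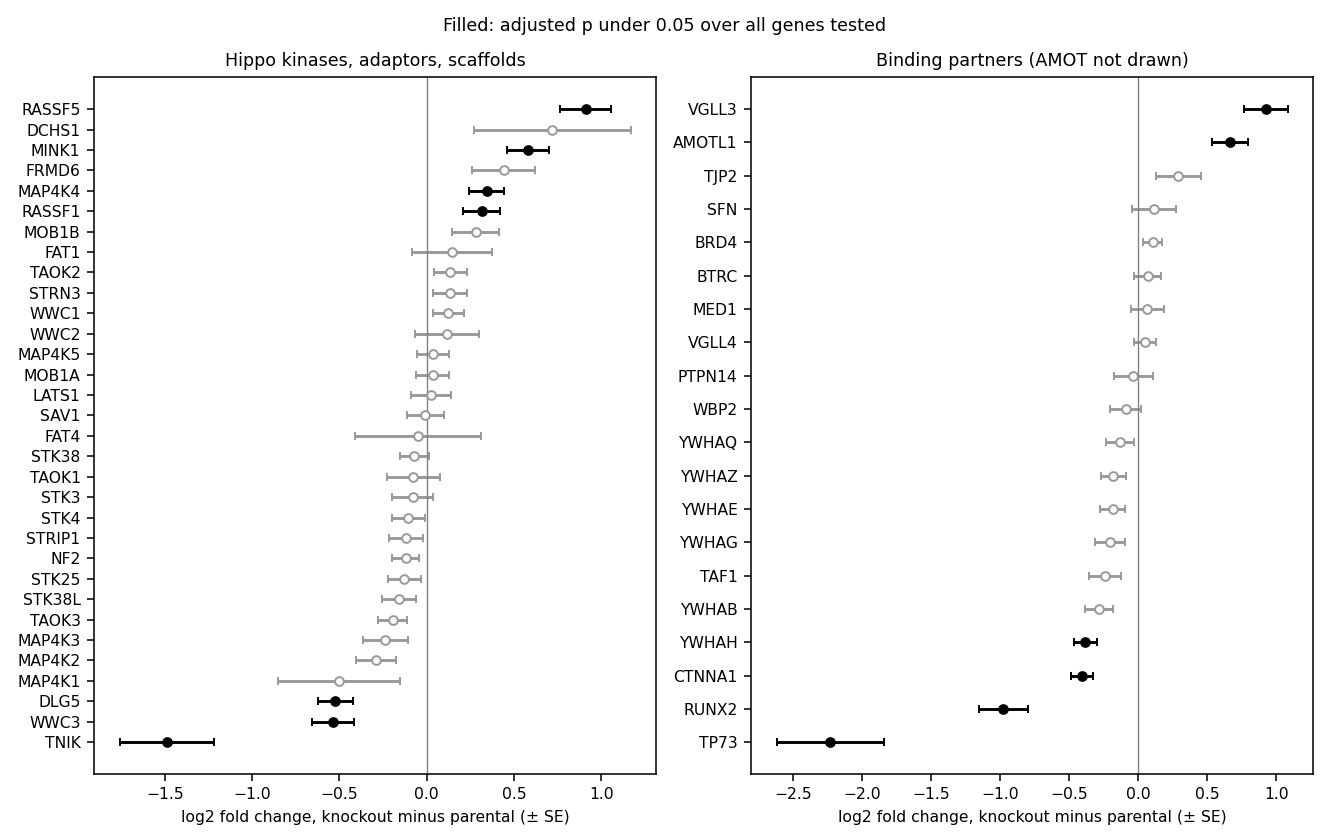
Log2 fold changes (knockout against parental, edgeR) of tested Hippo kinases and scaffolds and of partners of YAP, TAZ and TEAD, with bars of 1 SE, filled points for called genes and AMOT not drawn. Called genes lie on both sides of 0 in both lists, and the core cascade genes STK3, STK4, SAV1, LATS1 and NF2 lie between -0.12 and 0.02.

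The mean profile of the 4 targets over the 8 tumours, on the log2 scale with each gene centred on its own mean, was -0.29, 0.08, 0.06 and 0.27 in parental tumours and -0.11, -0.44, 0.17 and 0.26 in knockout tumours. It averages CTGF, which fell, with AMOTL2, which rose, and gives ANKRD1, with 4 to 22 reads, the same weight, so it says nothing on whether the targets differ between groups. Candidates were 13044 other genes whose average log2 CPM reached 1. The nearest to the profile were TMEM206, PHLDA3 and DDAH2, with root mean square differences of 0.114, 0.121 and 0.131 on the log2 scale over 8 tumours. Leaving out 1 tumour at a time moved their ranks to between 1 and 28, 1 and 35, and 3 and 57, so the order of likeness rests on few libraries.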

How the data were processed

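RNA-seq libraries of 8 xenograft tumours were counted per gene. The deposited files hold unnormalized counts for each gene symbol, made with TopHat2 2.1.1 and HTSeq 0.11.0 on hg38, per the submitters' processing notes. Annotation, strand setting and any separation of mouse from human reads are not given in the sources used here, so reads of overlapping genes or of mouse transcripts could be counted for a gene. The 5 summary lines were left out. Gene counts were 19785922 to 23191698 per parental and 20662882 to 21981123 per knockout library. They were 79.1% to 85.2% of gene counts and summary lines together, which is not a share of all sequenced reads.

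Counts were filtered (filterByExpr: minimum count 10, minimum total 15), scaled by TMM and tested with edgeR 4.0.16 in R 4.3.3. Gene-level p-values were adjusted over the 16219 genes tested, and 4385 were called. Standard errors were obtained from log2 fold change and F, and intervals from these with 6 residual degrees of freedom. These intervals are wider than the edgeR p-values imply. For WWTR1 an interval of -0.71 to 0.04 stands beside an edgeR p of 0.0499. CPM values use TMM-scaled libraries. TPM used GENCODE 29 exon lengths, matched for 56694 of 59050 symbols (96.0%). Shares and totals were tested by exact two-sided permutation, adjusted over 6 comparisons. Counting intervals cover counting error only.

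Members and gene lists were chosen with earlier results of these data known. Named genes were the members, the called genes of the kinase, partner and signature lists (at most 8 each by adjusted p), the CCN family and the 3 most alike genes; exceptions are stated. Alternatives were other scalings, filters, DESeq2 1.42.0, limma 3.58.1 (voom), a replicate block, marker scores as covariates and leaving out each tumour.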

Additional observations from a re-analysis of the deposited data

Results flagged for a closer look

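In 94 sets of 4 tumours, 6 had 1 tumour far from the other 3 by Dixon's test for a lone extreme value. Chance alone flags about 5% of sets. Knockout tumour 4 was the one apart in 4 of them. YAP1 stood at 139 CPM there against 181 to 184 CPM in the other knockout tumours, and TEAD3 at 29.6 CPM against 25.2 to 25.9 CPM. The TEAD1 share of the TEAD total was 33.7% there against 41.2% to 42.2%, and IGFBP3 was at 642 CPM against 1087 to 1175 CPM. This library also had the largest share of reads in no annotated feature, 10.4% against 7.32% to 8.56% in the other knockout libraries, and its part in these values was not tested. Without it the log2 fold change was 0.24 for YAP1 (edgeR adjusted p = 0.167) and 0.25 for TEAD1 (0.116), and neither was called. Without parental tumour 3, the lowest of its group for both genes, the values were 0.049 and 0.074. CCN4 was at 0.585 CPM in knockout tumour 2 against 0.0467 to 0.0934 CPM, and AMOT was at 0 in knockout tumour 3 against 0.0467 to 0.0488 CPM, which is 1 read in each of the other 3.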

How the results depend on the processing

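Of 27 called genes from the members and pathway lists, 9 kept their call in all 20 alternatives, TEAD3 among them. The fibroblast and smooth muscle score as a covariate, which holds LUM and TAGLN, ended 18 calls, some with folds about as large (MINK1 0.60, TP73 -2.07, CRIM1 -0.41) and some with smaller ones (MYOF 0.01, F3 0.11, FJX1 -0.21). It gave 1788 called genes, 1 called member and 3 called signature genes, and turned TEAD1 to -0.027 and CYR61 to -0.27, neither called. Without LUM and TAGLN in the score (added after seeing the data), 4021 genes, 3 members and 8 signature genes were called; AMOTL2, FJX1 and F3 lost their calls and TEAD2 gained one (0.83, edgeR adjusted p = 0.0282). Leaving out 1 tumour gave 3501 to 4721 called genes, 2 to 3 called members and 7 to 12 signature genes. Replicate numbers did not pair the tumours: correlations of same-numbered deviations were -0.04, 0.01, -0.28 and 0.12, and 1 of 4 matched its own number best. With the replicate block 3871 genes, 2 members and 11 signature genes were called, and AMOTL2 (0.35, adjusted p = 0.0762), RASSF1 (0.0838), MAP4K4 (0.0525) and CRIM1 (0.0565) lost their calls. No TEAD share passed the correction with either length per gene, and the other length moved the order of some members by level. Depth limits ANKRD1, CCN4, CCN6 and AMOT in knockout tumours.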
